A study of Tetranychus urticae with 24 samples.

Results

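The comparison described here set adult female two-spotted spider mites (Tetranychus urticae) sprayed with cyclosporin A (CsA) against mites sprayed with the formulation alone (FORM), across every expressed gene. It rests on 8 of the 24 RNA-seq libraries of the series, 4 biological replicates of each group, chosen by their labels. The CsA mites received 50 ppm CsA dissolved in the formulation, and the FORM mites received the formulation, a watery dilution of the solvent N,N-dimethylformamide and the emulsifier W. Both groups thus carried the solvent. All mites were females of 3 to 5 days of age from JP-R, a strain reared on bean that withstands the acaricides cyenopyrafen and cyflumetofen. Living mites were collected after 24 h, about 100 females for each extraction, so a library averages over all tissues and over the eggs inside the body. Unsprayed mites (CON) and mites sprayed with piperonyl butoxide (PBO), S,S,S-tributyl phosphorotrithioate (DEF) or diethyl maleate (DEM) formed the other groups, with 4 libraries each, and they entered the same model.

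CsA is a cyclic peptide of fungal origin. It is used as a synergist because it blocks ABC transporters, which pump compounds out of cells at the cost of ATP, and in mammals it is better known for binding cyclophilin and thereby inhibiting the phosphatase calcineurin. The major facilitator superfamily (MFS) is the other large class of membrane carriers: its members move sugars, phosphate, organic anions, vitamins or drugs along ion or substrate gradients without ATP. Foreign compounds that enter a mite are oxidised by cytochrome P450s, reduced by short-chain dehydrogenases and carbonyl reductases, or joined to glutathione by glutathione S-transferases (GSTs) and to sugars by UDP-glycosyltransferases (UGTs). Gene IDs of this species give the scaffold before the letter g and a gene number after it. Descriptions in words are those of the study's tables, which cover 365 of the genes tested. Those tables were made from these libraries, so the direction of any gene list drawn from them is not independent evidence.

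The counts of the CsA libraries totalled 14432480 to 15953098 reads (median 15106466), and those of the FORM libraries 14573720 to 17633311 (median 15961778). Replicate 4 of CsA (CsA4) stood apart from the other CsA libraries before any gene was named. It was the CsA library farthest from the median of its group for 5481 genes (43.0%), against 1931 for CsA1, 2087 for CsA2 and 3237 for CsA3. The median SD of log2 CPM (read counts scaled to a common library size) among the CsA libraries was 0.155 with CsA4 and 0.122 without it, and 0.115 among the FORM libraries. For this reason the main results are given with and without CsA4, and a call named below held in all 8 fits that left out a library unless its loss is stated. The markers of reproducing females were present in all 8 libraries: vitellogenin tetur20g01230, a yolk precursor, had 143, 113, 112 and 158 CPM in the CsA libraries and 103, 94.2, 87.4 and 116 CPM in the FORM libraries. The germline RNA helicase vasa (tetur10g01960) had 181, 174, 160.0 and 144 CPM with CsA and 164, 143, 139 and 157 CPM with FORM. CsA4 was the highest library for vitellogenin and the lowest CsA library for vasa, and neither gene was called (adjusted p = 0.183 and 0.353).

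Of the 12736 genes tested, 133 (1.04%) were called at an adjusted p under 0.05 in edgeR's quasi-likelihood test and an absolute FC (fold change) of at least 1.5. Of these, 71 (0.557%) were higher and 62 (0.487%) were lower in CsA mites. At an unadjusted p under 0.05 there were 3146 genes, 24.7% of those tested. Among the called genes the steepest increase was 6.81-fold, for the transporter gene tetur08g06890, and the steepest decrease 5.14-fold, for tetur08g06400. The median FC was 1.87 for the genes called higher, and the median decrease was 1.94-fold for the genes called lower. The genes called higher had a median FORM level of 4.15 CPM and those called lower 23.8 CPM, against 23.3 CPM over all genes tested. The study's tables describe 36 of the genes called higher and 45 of those called lower. Since whole mites were used, a lower level can mean less RNA per cell or fewer cells of the type that makes it, and these cannot be told apart.

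The genes called lower were carried by all CsA libraries, while those called higher were not. For the 62 genes called lower, CsA4 lay below every FORM library in all 62, and the median log2 difference from the FORM mean was −0.92 in CsA1, −1.04 in CsA2, −0.83 in CsA3 and −0.86 in CsA4. In 58 of them no CsA library overlapped a FORM library, where all 4 CsA libraries lay below all 4 FORM libraries in 7.25% of the genes tested. Among the 71 genes called higher, CsA4 lay above the FORM libraries in 34, among them in 23 and below all of them in 14. Their median log2 difference from the FORM mean was 1.08 in CsA1, 0.95 in CsA2 and 1.02 in CsA3, but 0.28 in CsA4. In 33 of the 71 all CsA libraries lay above all FORM libraries, which held for 4.34% of the genes tested. The genes were called on these same libraries, so neither count is independent evidence of a separation. Over all 12736 genes tested, CsA4 lay above the FORM libraries in 3306, among them in 6042 and below them in 3388.

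**Figure D1:**
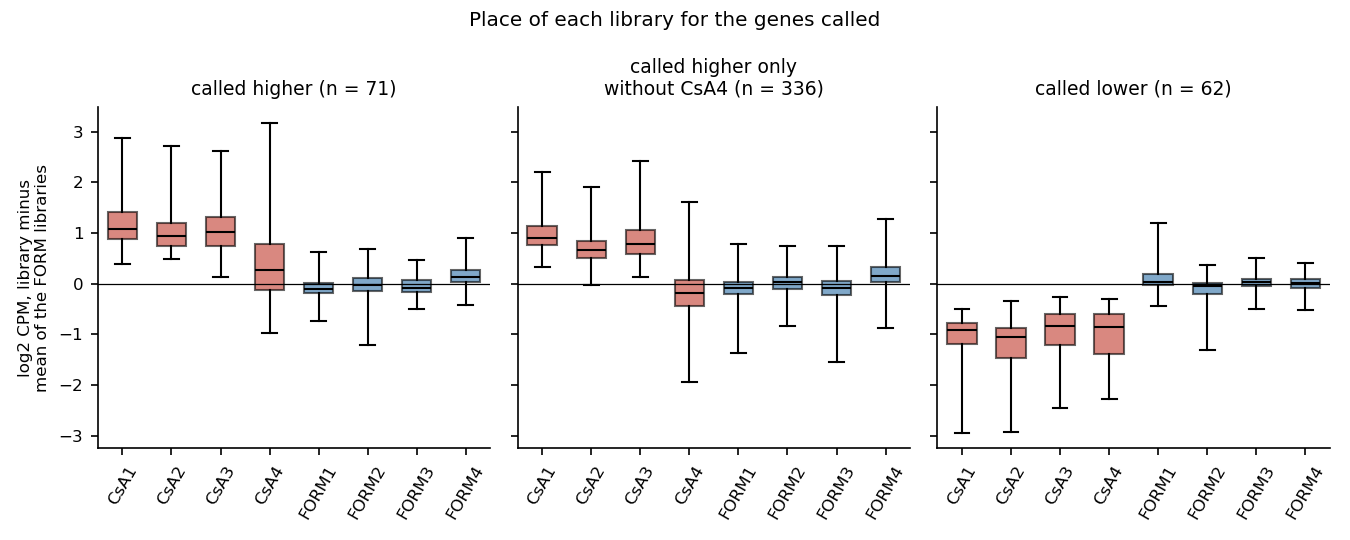
Box plots of the difference in log2 CPM between each library and the mean of the FORM libraries, over the genes called higher (left), called higher only when CsA replicate 4 was left out (middle) and called lower (right). Boxes give the median and quartiles and whiskers the full range over genes, with CsA libraries in red and FORM libraries in blue; CsA4 has a median of 0.28 on the left and −0.17 in the middle, and −0.86 on the right, where it lies beside the other CsA libraries.

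Without CsA4, 414 genes were called higher (3.23%) and 94 lower (0.732%) of 12837 genes tested. All 71 genes called higher with CsA4 were among the 414, and 61 of the 62 called lower were among the 94. Of the genes tested in both fits, a further 336 were called higher only without CsA4, and for these CsA4 lay above the FORM libraries in 42, among them in 147 and below them in 147. Leaving out any other library except FORM4 lowered the count of genes called higher: it was 19 without CsA1, 20 without CsA2, 23 without CsA3, 22 without FORM1, 20 without FORM2 and 19 without FORM3, and it was 90 without FORM4. The count of genes called lower ran from 47 without CsA1 to 65 without CsA3 under the same omissions. Gene by gene, 42 of the 62 genes called lower and 15 of the 71 called higher were called in all 8 fits that left out a library.

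**Figure D2:**
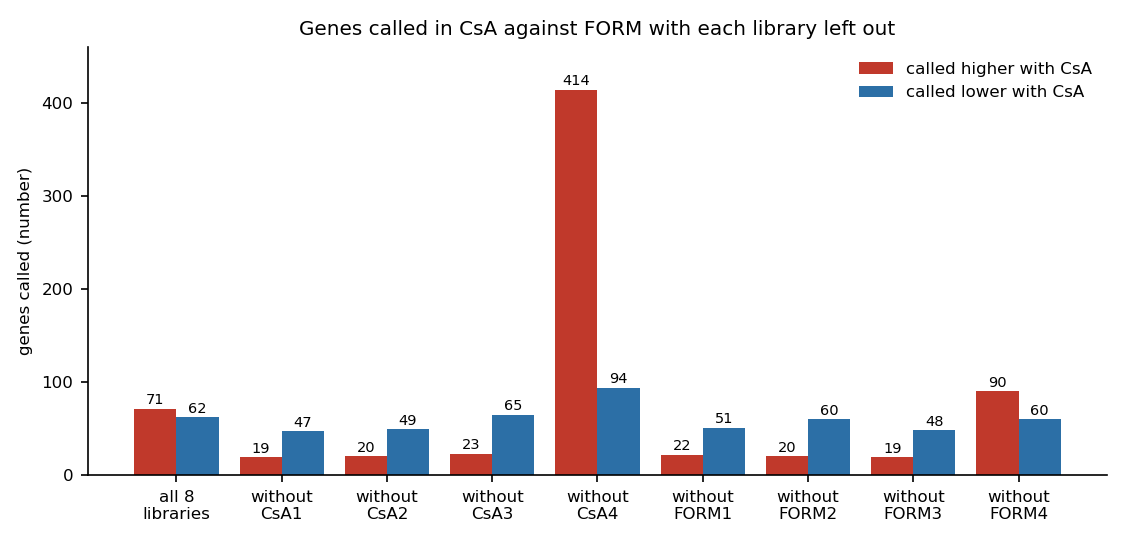
Number of genes called higher (red) and lower (blue) in CsA against FORM with all 8 libraries and with each library left out in turn; the vertical axis counts genes and starts at 0. Leaving out CsA4 gives 414 genes called higher, and leaving out any of CsA1 to CsA3 or FORM1 to FORM3 gives 19 to 23.

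The gene group with the most calls was the MFS. Over all genes tested, 0.487% were called lower and 0.557% higher with all libraries, and 0.732% and 3.23% without CsA4. Of the 29 described MFS members, 17 were lower and 4 higher in CsA mites, and their median log2 FC was −0.81, against 0.01 over all genes tested. The same numbers, 17 and 4, were called without CsA4, and the median log2 difference from the FORM mean in CsA4 was −0.78, beside −0.74, −0.75 and −0.66 in CsA1 to CsA3. Among the fits that left out a library, 14 to 17 members were lower, the fewest without CsA1 and without FORM3, and 3 or 4 were higher. The list was drawn from gene tables made on these libraries. For 20 of the 29 genes that table was one of genes changed by CsA, so the direction of the list is not independent evidence. By type, 8 of 14 anion/cation symporters were lower and 2 higher, all 4 carriers of the folate/heme type were lower, 3 of 7 fucose/glucose symporters were lower and 2 higher, and 2 of 4 other members were lower.

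**Figure D3:**
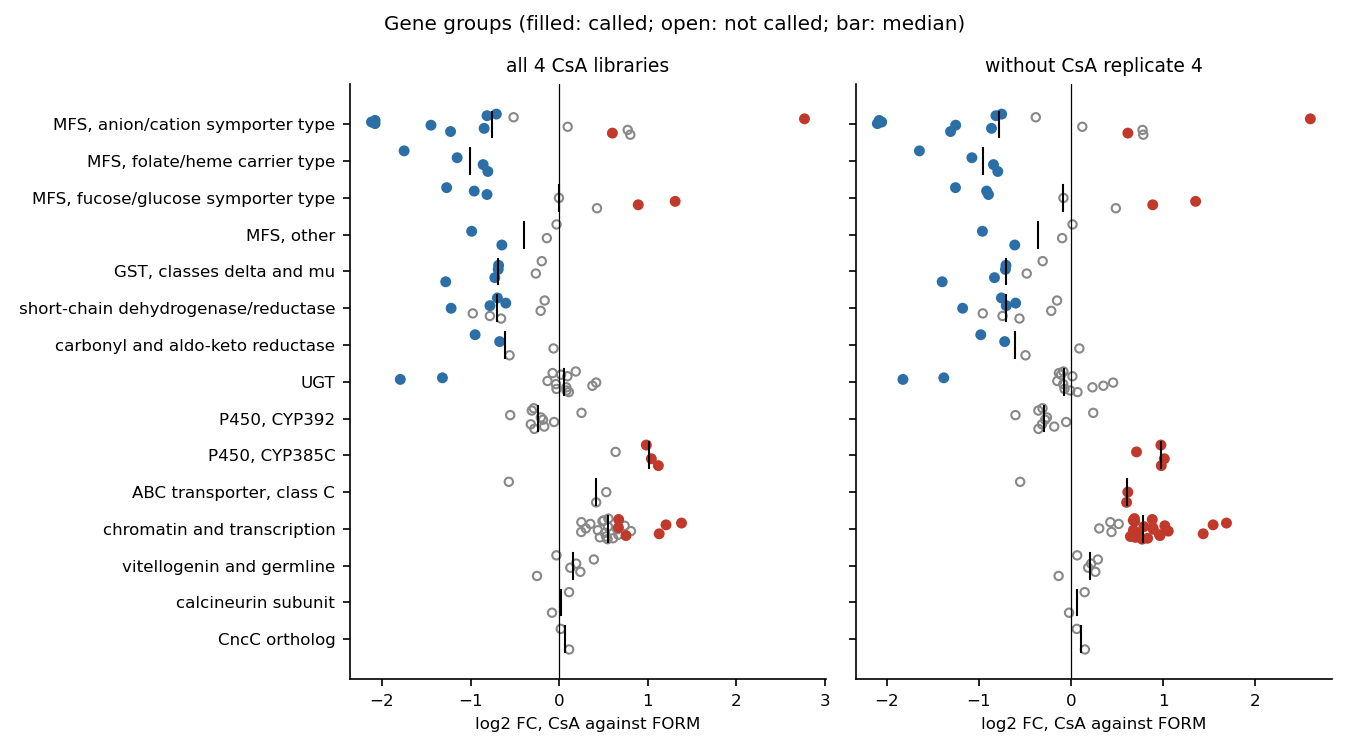
The log2 FC of CsA against FORM for each tested member of 15 gene groups, with all CsA libraries (left) and without CsA replicate 4 (right); each point is a gene, filled in red where called higher and in blue where called lower, open where not called, and the bar is the group's median. The MFS, GST and short-chain dehydrogenase groups keep their blue points in the right panel, and the chromatin and transcription group has 6 red points on the left and 20 on the right.

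The largest increase belonged to tetur08g06890, described as a member of solute carrier family 17, a family of anion carriers that takes up phosphate, sialic acid or glutamate in animals. It had 118, 146, 135 and 200.3 CPM in the CsA libraries, against 22.4, 21.9, 23.1 and 20.6 CPM in the FORM libraries. Every CsA library lay far above every FORM library, with CsA4 the highest, and the unsprayed mites were at 27.4 ± 5.17 CPM (SD, n = 4). The increase was 6.81-fold (log2 FC 2.77, SE 0.14, adjusted p = 7.61e-12), and the log2 FC was 2.60 without CsA4. The other synergists left this gene near the FORM level, at 15.1 to 21.04 CPM with DEM, 21.7 to 23.3 CPM with DEF and 24.5 to 29.1 CPM with PBO. Compared directly, CsA exceeded DEM (log2 FC 3.02, adjusted p = 1.52e-12), where 0.589% of genes were called, DEF (log2 FC 2.74, adjusted p = 5.00e-12), where 6.25% were called, and PBO (log2 FC 2.45, adjusted p = 1.15e-11), where 9.67% were called.

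Its neighbour in gene number fell. tetur08g06870, described as similar to a sodium-dependent phosphate transporter, had 52.9, 49.7, 59.5 and 54.7 CPM in the CsA libraries, against 244, 210.0, 229 and 233 CPM in the FORM libraries. The CsA libraries formed a narrow band far below the FORM libraries, CsA4 included. The decrease was 4.22-fold (log2 FC −2.08, SE 0.11, adjusted p = 1.05e-11), and the log2 FC was −2.08 without CsA4. Direct tests gave lower levels with CsA than with DEM (log2 FC −2.001, adjusted p = 2.33e-11), DEF (log2 FC −2.03, adjusted p = 8.50e-12) and PBO (log2 FC −2.18, adjusted p = 2.90e-12). In the run of 8 genes from tetur08g06810 to tetur08g06900, all tested, 1 was higher and 3 were lower, the others being tetur08g06820, a hypothetical protein (log2 FC −0.89, SE 0.14, adjusted p = 4.01e-04), and tetur08g06850, with a calcium-binding C2 domain for membrane targeting (log2 FC −0.66, SE 0.08, adjusted p = 7.65e-06). The remaining 4 genes of the run lay between −0.22 and 0.10 in log2 FC and were not called. Levels of tetur08g06850 were 22.7, 23.99, 25.4 and 24.8 CPM in the CsA libraries and 39.3, 37.9, 39.4 and 36.6 CPM in the FORM libraries, which do not overlap.

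A second run on the same scaffold held genes for sialin, the carrier that in mammals exports sialic acid from lysosomes. tetur08g06360 had 7.63, 7.37, 7.92 and 8.14 CPM in the CsA libraries, against 30.8, 34.7, 34.8 and 30.9 CPM in the FORM libraries. The spread within each group was small beside the difference between them, and the decrease was 4.22-fold (log2 FC −2.08, SE 0.13, adjusted p = 9.08e-11). tetur08g06370 had 0.937, 0.946, 1.23 and 0.861 CPM in the CsA libraries, against 4.31, 4.56, 3.62 and 4.82 CPM in the FORM libraries, a 4.34-fold decrease (log2 FC −2.12, SE 0.19, adjusted p = 4.39e-08), although unsprayed mites were at only 1.98 ± 0.184 CPM (SD, n = 4). Against those unsprayed mites the decrease was smaller (log2 FC −0.996, adjusted p = 0.00538), and FORM itself was higher than CON (log2 FC 1.12, adjusted p = 0.00493). DEM was below FORM for this gene too, at 1.51 to 2.55 CPM (log2 FC −1.05, adjusted p = 0.0011), while DEF and PBO were not called against FORM (log2 FC 0.04 and 0.17). The direct test placed CsA below DEM (log2 FC −1.07, adjusted p = 0.00521). tetur08g06340 had 5.76, 5.61, 3.56 and 2.52 CPM in the CsA libraries, against 11.9, 9.52, 13.3 and 13.1 CPM in the FORM libraries, with CsA3 and CsA4 the lowest (log2 FC −1.45, SE 0.23, adjusted p = 7.61e-04), and against CON it was not called (log2 FC −0.71, adjusted p = 0.0613).

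The decrease did not extend to every gene of the run. Of its 8 members, 6 were tested and 4 were lower, the fourth being tetur08g06350, which has no description and few reads (1.74, 0.946, 0.799 and 0.596 CPM against 3.56, 1.04, 3.96 and 3.70 CPM, log2 FC −1.56, SE 0.41, adjusted p = 0.0419) and lost its call without CsA2, CsA3, FORM1, FORM3 or FORM4. The sialin gene tetur08g06330 was at 15.7, 14.6, 11.8 and 13.1 CPM in the CsA libraries and 12.02, 10.62, 16.1 and 13.2 CPM in the FORM libraries, which overlap (log2 FC 0.10), and tetur08g06320 was not called either. Both members without a test had no read in the CsA and FORM libraries. Just past the run lies tetur08g06400, the called gene with the steepest decrease, at 0.201, 0.0676, 0.291 and 0.132 CPM with CsA and 1.03, 0.750, 0.682 and 1.19 CPM with FORM (log2 FC −2.36, SE 0.43, adjusted p = 0.00273). At this depth these values stand for few reads, and a fitted FC of such a gene is imprecise.

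**Figure D4:**
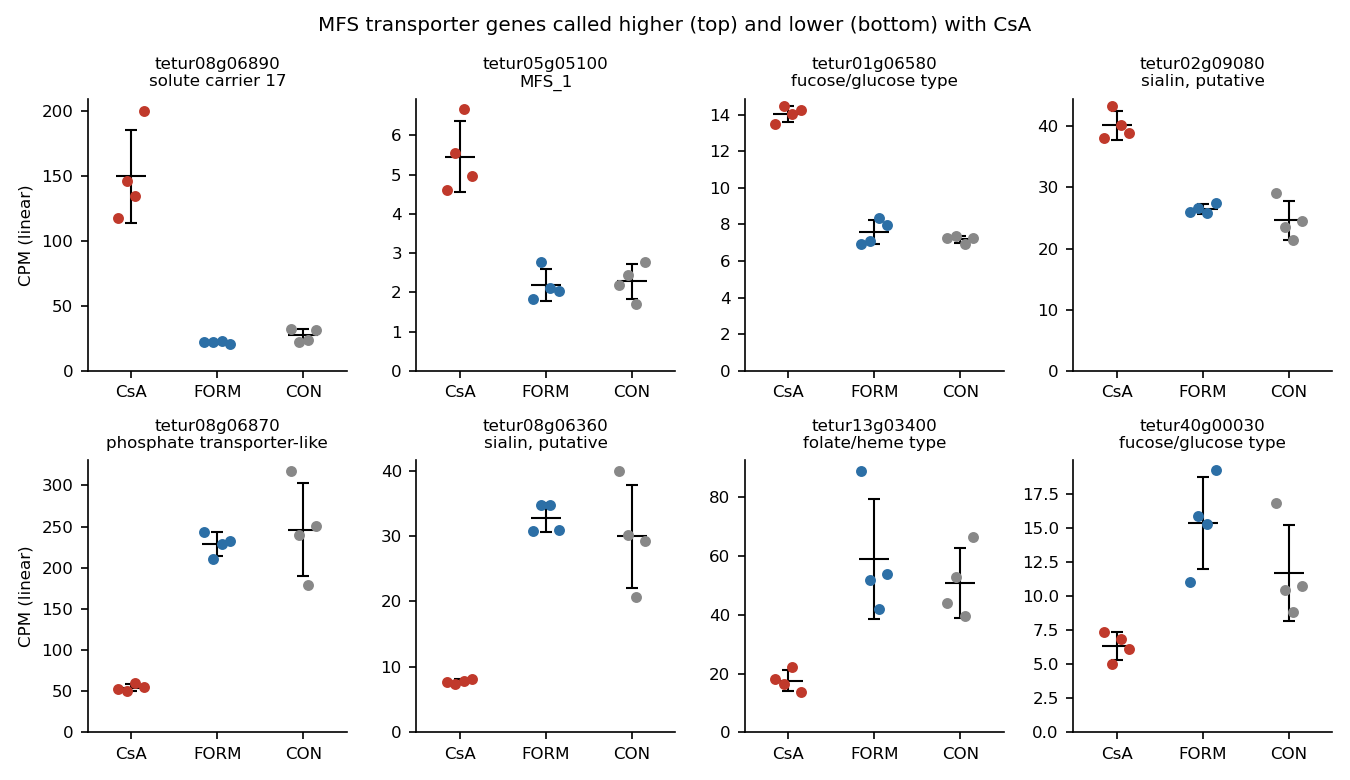
CPM on linear axes from 0 for 4 MFS genes called higher (top) and 4 called lower (bottom) in CsA mites, with CsA in red, FORM in blue and unsprayed CON in gray; each point is a library and the bars are the mean and SD (n = 4). The CsA and FORM points do not overlap in any of the 8 panels, and tetur08g06890 reaches 200.3 CPM in CsA4.

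Among the other anion/cation symporters, the gene described as vesicular glutamate transporter 1 (tetur05g04460), whose namesake in mammals loads glutamate into synaptic vesicles, had 12.7, 10.61, 13.1 and 14.96 CPM in the CsA libraries, against 42.5, 23.5, 24.7 and 29.5 CPM in the FORM libraries. The groups did not overlap, with FORM1 the highest (log2 FC −1.23, SE 0.22, adjusted p = 0.00272). Phosphate transporter genes tetur06g00310 (log2 FC −0.85) and tetur19g01060 (log2 FC −0.71) and the sialin gene tetur11g03090 (log2 FC −0.81) were lower as well, and the call of tetur19g01060 was lost without CsA1 and without FORM3. The phosphate transporter gene tetur11g02480 was not called (log2 FC −0.51). The second symporter that was higher was the putative sialin tetur02g09080, at 38.1, 43.4, 40.2 and 38.9 CPM with CsA and 26.04, 26.6, 25.8 and 27.5 CPM with FORM, which are far apart for their spread but close to the limit of 1.5-fold (log2 FC 0.60, SE 0.13, adjusted p = 0.0142). Its call was lost without CsA2, FORM1 or FORM3. The phosphate transporter genes tetur05g05720 and tetur01g08670 had all CsA libraries above all FORM libraries without being called (adjusted p = 0.156 and 0.0674).

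All 4 carriers of the folate/heme type were lower, and their median log2 FC was −1.005. The steepest was tetur13g03400, with 18.1, 16.4, 22.4 and 13.7 CPM in the CsA libraries, against 88.7, 51.8, 42.02 and 53.8 CPM in the FORM libraries. FORM1 was well above the other FORM libraries, yet the lowest FORM library was still higher than any CsA library (log2 FC −1.75, SE 0.24, adjusted p = 1.40e-04). tetur04g02440 had 34.8 to 49.6 CPM with CsA and 83.7 to 101 CPM with FORM (log2 FC −1.15, SE 0.13, adjusted p = 6.29e-06). The neighbours tetur02g07750 (log2 FC −0.81, SE 0.09, adjusted p = 1.74e-06) and tetur02g07760, described as a pseudogene (log2 FC −0.86, SE 0.11, adjusted p = 1.73e-05), completed the group, and the third gene of their run, tetur02g07770, was not called. tetur13g03400 was lower with the other synergists too (DEM log2 FC −0.95, adjusted p = 0.0162, DEF log2 FC −1.34, adjusted p = 9.30e-04 and PBO log2 FC −0.72, adjusted p = 0.0498). The direct difference of CsA was called against PBO (log2 FC −1.03, adjusted p = 0.0029) but not against DEM (log2 FC −0.80, adjusted p = 0.226) or DEF (log2 FC −0.41, adjusted p = 0.256).

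The fucose/glucose symporters split in direction, with a median log2 FC near 0. tetur05g05100 had 4.62, 5.54, 6.68 and 4.97 CPM in the CsA libraries, against 1.84, 2.77, 2.11 and 2.03 CPM in the FORM libraries, a 2.48-fold increase (log2 FC 1.31, SE 0.21, adjusted p = 3.60e-04). tetur01g06580 was at 13.5 to 14.5 CPM with CsA and 6.96 to 8.32 CPM with FORM (log2 FC 0.89, SE 0.11, adjusted p = 7.65e-06). This gene stood at 14.1 to 19.3 CPM with DEM, 18.6 to 22.2 CPM with DEF and 10.1 to 13.8 CPM with PBO, all above FORM. The direct difference of CsA was not called against DEM (log2 FC −0.18, adjusted p = 0.972) or PBO (log2 FC 0.14, adjusted p = 0.298), and against DEF it stayed under 1.5-fold (log2 FC −0.53, adjusted p = 6.57e-04). tetur40g00030 had 7.37, 5.00, 6.90 and 6.16 CPM in the CsA libraries, against 11.04, 15.9, 15.3 and 19.3 CPM in the FORM libraries (log2 FC −1.27, SE 0.23, adjusted p = 0.00293). The study's quantitative PCR, however, found no significant difference between CsA and FORM for this gene. For this gene DEF and PBO mites lay at 28.4 to 40.03 and 28.5 to 40.7 CPM, above FORM, and CsA was lower than both in direct tests (DEF log2 FC −2.35, adjusted p = 1.60e-07, PBO log2 FC −2.37, adjusted p = 1.62e-07). The decreases of tetur15g00220 (log2 FC −0.96) and tetur13g02590 (log2 FC −0.81) were smaller, and the call of tetur13g02590 was lost without CsA1, CsA3 or FORM3. The sodium-dependent glucose transporter genes tetur07g06710 and tetur01g06570 were not called.

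Of the remaining members, tetur04g01990, named after the oxalate:formate antiporter of bacteria, was at 1.62 to 3.63 CPM with CsA and 4.44 to 5.29 CPM with FORM (log2 FC −0.99, SE 0.19, adjusted p = 0.00553). tetur01g06600 was called lower (log2 FC −0.65) but not without CsA1, CsA2, FORM1, FORM3 or FORM4, and the UNC93-like gene tetur04g01670 and the sugar transporter gene tetur17g01290 were not called. With the unsprayed mites in place of FORM, 12 of the 29 MFS genes were lower and 8 higher. Over all 12736 genes tested, 122 were lower and 193 higher in that comparison. The 5 genes called lower against FORM and not against CON were tetur08g06340, tetur01g06600, tetur13g02590, tetur15g00220 and tetur19g01060, for which CON averaged 7.16 ± 1.18, 8.55 ± 1.03, 12.99 ± 2.03, 11.01 ± 1.28 and 108 ± 24.7 CPM (SD, n = 4), below the FORM means in each case.

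**Figure D5:**
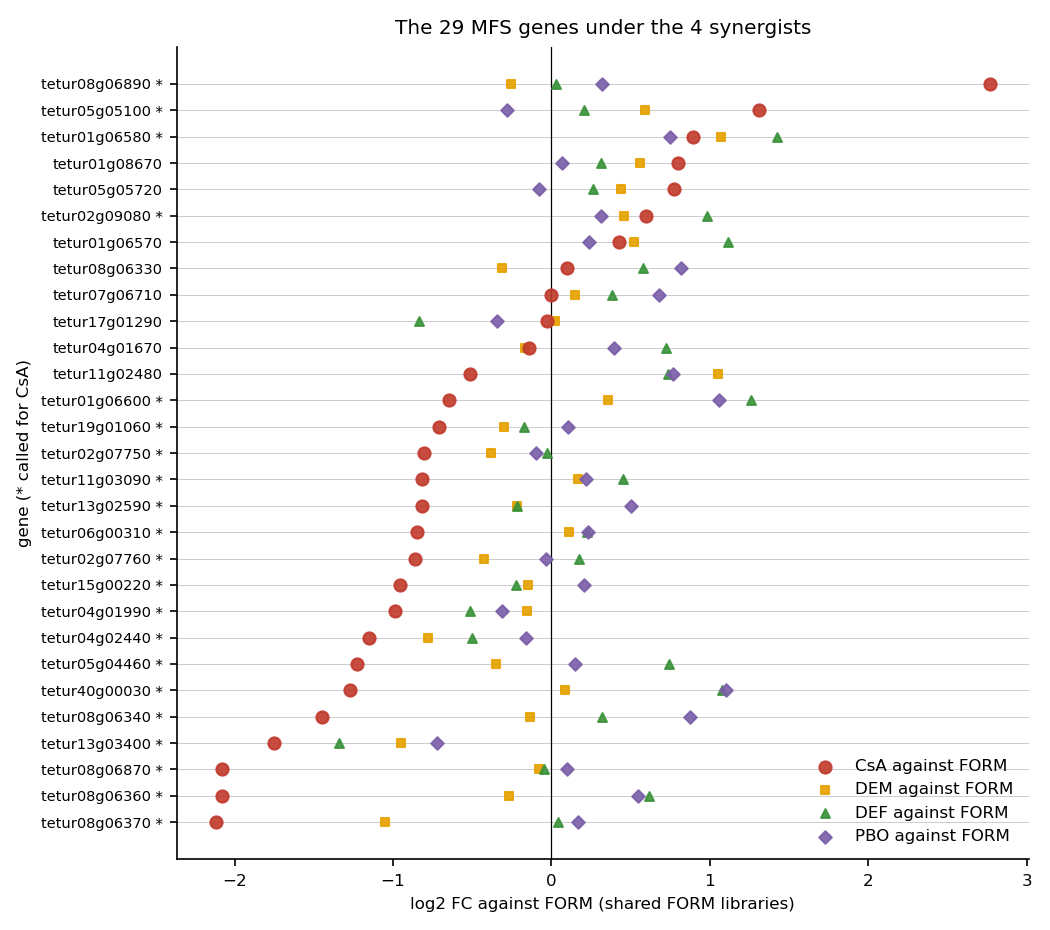
The log2 FC against FORM of the 29 MFS genes for CsA (red circles), DEM (yellow squares), DEF (green triangles) and PBO (purple diamonds); genes run down the page from the highest to the lowest value with CsA and an asterisk marks those called for CsA. The 4 comparisons share the FORM libraries; the lowest red circles lie at −2.08 to −2.12, where tetur08g06870 has values near 0 with the other synergists, and tetur08g06890 lies at 2.77.

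GSTs were the second group with a shared direction. Of the 6 genes of the delta and mu classes, 4 were lower and none higher, with a median log2 FC of −0.69, and the same held without CsA4. Over all genes tested, 0.487% were called lower with all libraries and 0.732% without CsA4. All 4 GST genes called came from the table of genes changed by CsA in these libraries, so their direction is not independent evidence. The delta gene tetur01g02480 had 52.5, 49.2, 60.4 and 72.3 CPM in the CsA libraries, against 137, 136, 148 and 149 CPM in the FORM libraries. CsA4 was the highest of the CsA libraries and still below every FORM library, and the decrease was 2.43-fold (log2 FC −1.28, SE 0.09, adjusted p = 9.51e-10), with a log2 FC of −1.40 without CsA4. Its neighbours tetur01g02500, of the same class (log2 FC −0.73, SE 0.09, adjusted p = 1.73e-05), and tetur01g02490, with no description (log2 FC −1.04, SE 0.20, adjusted p = 0.00482), were lower as well, while tetur01g02470 and tetur01g02510 were not called. In the run on scaffold 26, tetur26g01450 (114 to 153 CPM with CsA, 208 to 229.7 CPM with FORM, log2 FC −0.69) and tetur26g01490 (238 to 277 CPM with CsA, 393 to 435 CPM with FORM, log2 FC −0.68) were lower, and the other 5 genes were not called.

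DEM depletes glutathione, which GSTs consume, and it is compared here directly with CsA. tetur01g02480 stood at 113 to 129 CPM with DEM, below the FORM libraries and above the CsA libraries. CsA was lower than DEM in the direct test (log2 FC −1.03, adjusted p = 6.06e-08), while DEM against FORM was not called (log2 FC −0.25, adjusted p = 0.0671). For tetur01g02500, DEM was below FORM by less than 1.5-fold (log2 FC −0.52, adjusted p = 0.00305). The direct difference between CsA and DEM was not called for that gene (log2 FC −0.21, adjusted p = 0.788). The mu gene tetur05g05190 had 79.3, 64.9, 78.02 and 122 CPM with CsA and 100.2, 105, 98.03 and 110.3 CPM with FORM, where CsA4 lay above every FORM library and the other CsA libraries below, and it was not called (log2 FC −0.26 with CsA4 and −0.48 without it). The delta gene tetur29g00220 was not called (log2 FC −0.20).

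Reducing enzymes followed the same direction. Of 9 short-chain dehydrogenases, 4 were lower and none higher, with a median log2 FC of −0.70, and of 4 carbonyl and aldo-keto reductases 2 were lower, with a median of −0.62. Over all genes tested, 0.487% were called lower. In these lists, 4 dehydrogenases and 2 reductases came from the table of genes changed by CsA in these libraries. The direction of both lists is thus not independent evidence. tetur06g05080 had 182, 165, 231 and 170.2 CPM in the CsA libraries, against 453, 445, 425 and 420.4 CPM in the FORM libraries. This abundant transcript fell 2.33-fold (log2 FC −1.22, SE 0.10, adjusted p = 2.45e-08), and DEM lay between both groups at 284 to 314 CPM. tetur28g01720 was at 23.1 to 27.7 CPM with CsA and 38.00 to 42.4 CPM with FORM (log2 FC −0.70, SE 0.09, adjusted p = 2.70e-05). The neighbours tetur06g05090 (log2 FC −0.78) and tetur06g05110 (log2 FC −0.60) were called with all libraries, but CsA3 was the highest CsA library for both, with 71.4, 72.9, 120.1 and 69.6 CPM in the CsA libraries, against 151, 149, 141 and 132 CPM in the FORM libraries for tetur06g05090. The call of tetur06g05090 was lost without CsA1, CsA2, FORM1, FORM2 or FORM3, and that of tetur06g05110 without CsA1, CsA2 or FORM4. Carbonyl reductase [NADPH] 1 (tetur32g01960), which reduces ketones and aldehydes, was at 14.7 to 16.6 CPM with CsA and 23.8 to 34.8 CPM with FORM (log2 FC −0.95, SE 0.10, adjusted p = 1.30e-06), and the aldo-keto reductase tetur30g00660 had a log2 FC of −0.67.

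UGTs did not move as a group. Of 14 described genes 2 were lower and none higher, and the median log2 FC was 0.05. Over all genes tested, 0.487% were called lower. tetur22g00360 (teturUGT63) had 1.47, 1.42, 1.31 and 1.52 CPM in the CsA libraries, against 5.52, 4.04, 6.14 and 4.26 CPM in the FORM libraries. The CsA libraries agree closely with one another and lie below all FORM libraries (log2 FC −1.79, SE 0.19, adjusted p = 1.74e-06). DEF and PBO mites lay on the other side of FORM, at 11.8 to 13.8 and 8.78 to 11.7 CPM, and CsA was lower than DEF (log2 FC −3.15, adjusted p = 8.50e-12) and PBO (log2 FC −2.84, adjusted p = 4.74e-11) in direct tests, but not called against DEM (log2 FC −0.68, adjusted p = 0.265). tetur22g00420 (teturUGT65) was at 1.74 to 2.62 CPM with CsA and 3.55 to 7.70 CPM with FORM (log2 FC −1.32, SE 0.26, adjusted p = 0.00684). Also in that run, tetur22g00380, which has no description and few reads, was called lower, but not without CsA2, CsA3 or FORM1, and 3 of the 8 tested genes of the run were lower.

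The esterase and hydrolase genes that were called fell. A carboxyl/choline esterase (tetur01g10820), of the enzyme class that hydrolyses ester bonds in insecticides, had 9.98, 7.03, 13.2 and 9.80 CPM in the CsA libraries, against 22.8, 22.9, 22.2 and 23.9 CPM in the FORM libraries (log2 FC −1.20, SE 0.14, adjusted p = 6.29e-06), and it was the only one of 5 described esterases to be called. The esterases did not fall as a group: their median log2 FC was 0.32, and 3 of the 5 lay above 0. Glycoside hydrolases cleave bonds between sugars, and 2 of 3 genes with this catalytic core were lower, where 0.487% of all genes tested were. The third was not called but had a log2 FC above 0 and an unadjusted p under 0.05 in edgeR. tetur06g01700 had 42.99, 37.5, 50.1 and 50.3 CPM in the CsA libraries, against 102, 115, 116 and 114 CPM in the FORM libraries (log2 FC −1.31, SE 0.11, adjusted p = 1.40e-08), and its neighbour tetur06g01690 was at 2.32 to 4.11 CPM with CsA and 4.96 to 6.96 CPM with FORM (log2 FC −0.996, SE 0.20, adjusted p = 0.00714). tetur06g01700 was lower with DEF as well (log2 FC −0.62, adjusted p = 4.23e-04), and CsA lay below DEF in the direct test (log2 FC −0.69, adjusted p = 7.90e-05).

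With all libraries, the described P450s that were called belonged to a single subfamily, CYP385C. Of its 4 described genes, 3 were higher with all CsA libraries and all 4 without CsA4, and their median log2 FC was 1.01. In all 4 the CsA libraries lay above the FORM libraries, CsA4 included, and 3 of the 4 came from the table of genes changed by CsA in these libraries. Over all genes tested, 0.557% were called higher, and in 4.34% all CsA libraries lay above all FORM libraries. CYP385C4 (tetur11g05520) had 13.3, 14.7, 10.3 and 18.01 CPM in the CsA libraries, against 6.84, 6.52, 6.34 and 6.22 CPM in the FORM libraries (log2 FC 1.12, SE 0.22, adjusted p = 0.00511). CYP385C3 (tetur11g05540) was at 5.07 to 8.72 CPM with CsA and 2.77 to 3.62 CPM with FORM (log2 FC 1.04, SE 0.19, adjusted p = 0.00196), and CYP385C3v2 (tetur46g00170) at 8.79 to 12.8 CPM with CsA and 4.33 to 6.89 CPM with FORM (log2 FC 0.98, SE 0.18, adjusted p = 0.00299). CYP385C4v2 (tetur46g00150) missed the threshold (adjusted p = 0.0583, log2 FC 0.64). Outside this subfamily, the probable P450 pseudogene tetur21g00560, named after its values were seen, was not called with all libraries (log2 FC 1.07, adjusted p = 0.0726) but was higher without CsA4 (log2 FC 1.37, adjusted p = 0.00193). The names mark C3 and C3v2, and C4 and C4v2, as near copies, and since the counting left out reads with more than 1 place in the genome, their separate values are uncertain.

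With the other synergists the CYP385C genes stood at different levels. CYP385C3v2 stood at 2.37 to 4.09 CPM with DEM, 8.52 to 11.5 CPM with DEF and 6.22 to 10.1 CPM with PBO. CsA exceeded DEM for this gene (log2 FC 1.68, adjusted p = 5.16e-06) and for CYP385C4 (log2 FC 1.68, adjusted p = 8.30e-05), while the differences from DEF were not called (log2 FC 0.17, adjusted p = 0.519 for CYP385C3v2 and log2 FC 0.30, adjusted p = 0.32 for CYP385C4), nor were those from PBO (log2 FC 0.43, adjusted p = 0.0631 for CYP385C3v2 and log2 FC 0.29, adjusted p = 0.284 for CYP385C4). None of the 10 CYP392 genes was called by edgeR, DESeq2 or limma (median log2 FC −0.24), and 6 had an unadjusted p under 0.05 in edgeR, 1 of them higher, where 24.7% of all genes tested did. CYP392A16 (tetur06g04520) was at 877 to 1091 CPM with CsA and 1040.2 to 1255 CPM with FORM (log2 FC −0.21), although 2 hypothetical proteins beside it in gene number were lower. These were tetur06g04580, with 6.70, 8.45, 8.14 and 9.07 CPM in the CsA libraries, against 31.2, 29.5, 32.7 and 33.7 CPM in the FORM libraries (log2 FC −1.97, SE 0.12, adjusted p = 2.89e-11), and tetur06g04550 (log2 FC −0.70).

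Genes for chromatin and transcription proteins were the group most affected by CsA4. With all libraries 6 of the 24 described genes were higher, and without CsA4 20 were. Over all genes tested in each fit, 0.557% were called higher with all libraries and 3.23% without CsA4. All 24 had a log2 FC above 0, with a median of 0.55, yet the median log2 difference from the FORM mean was 0.96 in CsA1, 0.77 in CsA2 and 0.66 in CsA3, against −0.39 in CsA4. None of the 6 calls held without CsA1, CsA2 or CsA3, nor without FORM1, FORM2 or FORM3, and tetur29g01500 and tetur10g00150 were also lost without FORM4. tetur17g01650, similar to mammalian mixed-lineage leukemia 2, a histone methyltransferase, had 18.9, 17.2, 12.6 and 2.91 CPM in the CsA libraries, against 4.60, 5.42, 5.18 and 7.26 CPM in the FORM libraries (log2 FC 1.21, SE 0.33, adjusted p = 0.0468). CsA4 lay below every FORM library for this gene and the other CsA libraries above, and without CsA4 the log2 FC was 1.54 (adjusted p = 4.55e-06).

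CsA4 lay below all FORM libraries in 21 of the 24 genes, among them in 1 and above them in 2. Over all 12736 genes tested, CsA4 lay below the FORM libraries in 3388, among them in 6042 and above them in 3306. The forkhead transcription factor gene FoxN1/4a (tetur21g02690) had 5.96, 2.84, 3.20 and 0.993 CPM in the CsA libraries, against 1.09, 1.33, 1.09 and 1.47 CPM in the FORM libraries (log2 FC 1.38, SE 0.35, adjusted p = 0.0371), and the Myc-type helix-loop-helix gene tetur04g05450 13.3, 8.99, 12.3 and 2.85 CPM in the CsA libraries, against 3.74, 4.10, 3.68 and 5.66 CPM in the FORM libraries (log2 FC 1.13, SE 0.29, adjusted p = 0.0404). For the zinc finger gene tetur03g04660 (log2 FC 0.75), the homeobox gene cut (tetur29g01500, log2 FC 0.67) and the nucleolin gene tetur10g00150 (log2 FC 0.67), CsA4 was again below all FORM libraries. The next 2 genes, picked after their values were seen, show the pattern among genes not called: nejire (tetur07g03900), the fly name of a histone acetyltransferase, had 93.7, 83.1, 66.8 and 30.7 CPM in the CsA libraries, against 38.9, 38.5, 35.9 and 43.2 CPM in the FORM libraries, and the GYF-domain gene tetur11g03200 192, 163, 159 and 67.1 CPM in the CsA libraries, against 93.02, 102, 93.05 and 108 CPM in the FORM libraries. The hypothetical protein tetur34g00420, which had the highest mean CPM of the genes called higher, had 1026, 673, 891 and 272 CPM in the CsA libraries, against 288, 320.2, 317 and 442 CPM in the FORM libraries (log2 FC 1.07, SE 0.28, adjusted p = 0.0427), and its call was lost without CsA1, CsA2, CsA3, FORM1, FORM2 or FORM3. DEM mites were at 657 to 892 CPM for this gene and 11.1 to 15.9 CPM for tetur17g01650, and neither direct difference between CsA and DEM was called (tetur34g00420 log2 FC −0.07, adjusted p = 1, tetur17g01650 log2 FC −0.12, adjusted p = 1). What set CsA4 apart was not tested. The vitellogenin and germline list of 6 genes, with a median log2 difference of 0.02 in CsA4 and 0.29, 0.15 and 0.10 in CsA1 to CsA3, had no gene called by edgeR with or without it or by DESeq2 or limma, and 2 of the 6 genes, both higher, had an unadjusted p under 0.05, beside 24.7% of all genes tested.

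No calcineurin subunit gene and no described ABC transporter of class C was called in edgeR with all libraries, while cyclophilin genes and ABC transporters of other classes were not examined as lists here. Of the 3 calcineurin subunit genes, tetur04g07540 was at 66.3 to 79.3 CPM with CsA and 62.8 to 70.5 CPM with FORM (log2 FC 0.11), tetur03g06410 at 58.7 to 76.6 and 64.7 to 78.4 CPM (log2 FC −0.08), and tetur04g07560 had too few reads to test, 17 in the CsA and 14 in the FORM libraries together. Neither tested gene had an unadjusted p under 0.05 or a call by DESeq2 or limma. Of 3 described ABC transporters of class C, none was called with CsA4 by edgeR, DESeq2 or limma-voom, all 3 had an unadjusted p under 0.05, and limma with sample quality weights called 2. Over all 12736 genes tested, 24.7% had an unadjusted p under 0.05 in edgeR, and limma with sample quality weights called 565 genes. Named after their values were seen, tetur14g02300 had 5.56, 5.14, 5.16 and 2.78 CPM in the CsA libraries, against 2.82, 4.33, 3.41 and 3.35 CPM in the FORM libraries, with CsA4 low, and tetur14g02320 11.7, 9.19, 11.04 and 8.28 CPM in the CsA libraries, against 6.38, 6.52, 7.71 and 7.26 CPM in the FORM libraries. Without CsA4 both were called higher (log2 FC 0.60, adjusted p = 0.0083, and log2 FC 0.62, adjusted p = 0.00495), as were 3.23% of the genes tested in that fit. With all libraries, tetur28g01950 missed the limit of 1.5-fold (log2 FC −0.57, adjusted p = 0.0413). The orthologs of CncC, the factor that switches on detoxification genes in insects, were not called by any of these tools and had no unadjusted p under 0.05, at 63.8 to 77.5 CPM with CsA and 63.9 to 74.7 CPM with FORM for tetur07g06850 and log2 FC 0.11 for tetur07g04600.

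Several single genes had CsA levels outside the FORM range in all libraries. An adenylate cyclase gene (tetur11g05110), whose product makes the messenger cyclic AMP, had 4.29, 3.72, 4.00 and 4.90 CPM in the CsA libraries, against 1.44, 1.38, 0.887 and 1.40 CPM in the FORM libraries (log2 FC 1.71, SE 0.22, adjusted p = 1.52e-05). It was higher with DEF (log2 FC 1.16, adjusted p = 0.00157) and PBO (log2 FC 0.82, adjusted p = 0.0275) too, and CsA exceeded DEM (log2 FC 1.79, adjusted p = 1.12e-05) and PBO (log2 FC 0.90, adjusted p = 0.00151) but was not called against DEF (log2 FC 0.55, adjusted p = 0.0473), where the FC was below 1.5. tetur14g01700, a conserved secreted protein with an immunoglobulin E-set domain, had 18.6, 29.2, 22.5 and 35.4 CPM in the CsA libraries, against 8.80, 10.4, 10.5 and 9.99 CPM in the FORM libraries (log2 FC 1.42, SE 0.28, adjusted p = 0.0086), and CsA4 was the highest library. tetur14g02060, with the same domain, fell, with 232, 285, 346 and 373 CPM in the CsA libraries, against 719, 596, 784 and 743 CPM in the FORM libraries (log2 FC −1.20, SE 0.11, adjusted p = 8.79e-08), and of its run of 4 genes it alone was called. The hypothetical protein tetur02g15535 had 2.81, 2.10, 3.63 and 2.65 CPM in the CsA libraries, against 13.7, 11.2, 14.1 and 14.5 CPM in the FORM libraries (log2 FC −2.25, SE 0.17, adjusted p = 1.76e-09), and direct tests placed CsA below DEM (log2 FC −1.94, adjusted p = 4.61e-08), DEF (log2 FC −1.77, adjusted p = 9.76e-08) and PBO (log2 FC −1.78, adjusted p = 9.96e-08).

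Increases whose call was lost when single libraries were left out were found for an Apple-like domain gene (tetur01g15010, log2 FC 1.31), cathepsin B (tetur24g00270, log2 FC 0.90), a lysosomal cysteine protease, and fibroin (tetur04g08890, log2 FC 1.13), a silk protein. All CsA libraries lay above all FORM libraries in the Apple-like and cathepsin genes, and the log2 FC without any single library stayed between 1.01 and 1.49 for the Apple-like gene, 0.76 and 1.01 for cathepsin B, and 0.998 and 1.37 for fibroin. Each kept its call in 2 or 3 of the 8 fits that left out a library, lost without CsA1, FORM1, FORM2 or FORM3 in all 3 genes, without CsA2 in the Apple-like and fibroin genes and without CsA3 in the Apple-like and cathepsin genes. On scaffold 30, 3 of 15 tested genes of a run of hypothetical proteins were lower. tetur30g01880 had 99.2, 86.6, 106 and 73.03 CPM in the CsA libraries, against 213, 173, 242 and 217 CPM in the FORM libraries (log2 FC −1.21, SE 0.16, adjusted p = 7.18e-05), while tetur30g01790 (log2 FC −1.09) and tetur30g01860 (log2 FC −0.96) were lower with fewer reads, the first of them not without CsA2 or FORM3 and tetur30g01860 not without CsA1, CsA2, FORM1, FORM2 or FORM3. For tetur30g01880 DEF stood above FORM (log2 FC 0.85, adjusted p = 0.00151), as it did for tetur30g01790 (log2 FC 1.30, adjusted p = 0.00101) and tetur30g01860 (log2 FC 0.79, adjusted p = 0.037). PBO stood above FORM for the same genes (log2 FC 0.55, adjusted p = 0.032 for tetur30g01880, log2 FC 1.34, adjusted p = 0.00118 for tetur30g01790 and log2 FC 1.22, adjusted p = 0.00232 for tetur30g01860). Neuropeptide F (tetur26g01200), a peptide that regulates feeding in insects, had 0.804, 0.0676, 0.145 and 0.199 CPM in the CsA libraries, against 1.55, 1.79, 1.30 and 0.908 CPM in the FORM libraries (log2 FC −2.16, SE 0.44, adjusted p = 0.00686), where CsA1 lay close to FORM4. It was lower with the other synergists as well, at 0 to 0.132 CPM with DEM (log2 FC −4.09, adjusted p = 1.61e-04), 0 to 0.179 CPM with DEF (log2 FC −4.24, adjusted p = 3.72e-05) and 0.0613 to 0.125 CPM with PBO (log2 FC −4.04, adjusted p = 1.02e-04). Direct differences of CsA were not called against DEM (log2 FC 1.92, adjusted p = 0.609), DEF (log2 FC 2.08, adjusted p = 0.065) or PBO (log2 FC 1.88, adjusted p = 0.0598), and without CsA4 CsA was higher than DEF (log2 FC 2.24, adjusted p = 0.0489) and PBO (log2 FC 2.04, adjusted p = 0.0455). The CsA libraries held only 12, 1, 2 and 3 reads of this gene, so the differences without CsA4 rest mostly on CsA1.

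Among the 15 genes called with the highest increases whose CsA libraries all lay above the FORM mean, 10 have no description, and their levels were low. tetur09g04060 had 2.61, 2.37, 3.05 and 1.13 CPM in the CsA libraries, against 0.862, 0.923, 0.955 and 1.05 CPM in the FORM libraries (log2 FC 1.27, SE 0.26, adjusted p = 0.00684). CsA4 was the lowest CsA library and still above the FORM libraries, and this call and that of tetur02g14480 (log2 FC 1.43, SE 0.29, adjusted p = 0.00688) held in all 8 fits that left out a library. tetur19g02340 had 0.937, 0.879, 0.872 and 0.397 CPM in the CsA libraries, against 0.0575, 0.231, 0.205 and 0.279 CPM in the FORM libraries, which hold 1, 4, 3 and 4 reads (log2 FC 1.98, SE 0.41, adjusted p = 0.00876). Unsprayed mites were at 0.596 ± 0.146 CPM (SD, n = 4), and against them this gene was not called (log2 FC 0.35, adjusted p = 0.491). The direct difference between CsA and DEM was not called either (log2 FC −0.33). tetur03g01950 had the next highest increase of this kind (log2 FC 1.68), and its call was lost without CsA1, CsA2, FORM1, FORM2, FORM3 or FORM4. Of the genes called lower without a description, tetur24g00750 was at 0.654 to 1.61 CPM with CsA and 2.31 to 3.74 CPM with FORM (log2 FC −1.49, SE 0.26, adjusted p = 0.00178), with no overlap.

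The genes called only without CsA4 had a median FORM level of 3.16 CPM where higher (336 genes) and 3.96 CPM where lower (33 genes). This compares with 4.15 CPM for the 71 genes called higher with all libraries and 23.3 CPM over all genes tested. Of the 336 genes, 34 had CsA and FORM means both under 1 CPM. Of the 336 called higher in this way 56 are described, and of the 33 called lower 3 are, beside 365 of all 12736 genes tested. The steepest increase was that of tetur04g09491, described as pancreatic hormone-like, with 0.201, 0.135, 0.799 and 0.199 CPM in the CsA libraries, against 0, 0.0577, 0.0682 and 0.0698 CPM in the FORM libraries, a log2 FC of 2.78 without CsA4 (adjusted p = 0.0266) and an adjusted p of 0.0619 with it. Among the decreases, the neuropeptide precursor gene tetur10g02190 had 0.937, 0.879, 0.363 and 0.993 CPM in the CsA libraries, against 1.78, 2.25, 1.36 and 1.19 CPM in the FORM libraries, and a log2 FC of −1.17 without CsA4 (adjusted p = 0.0335). For the 33 genes called lower in this way CsA4 lay below all FORM libraries in 20 and among them in 13.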

How the data were processed

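RNA was sequenced from 24 pools of adult females, of which the 4 CsA and 4 FORM libraries are compared here. Read quality was assessed with FastQC 0.11.4, alignment used STAR 2.5.0a and SAMtools 0.1.19 handled the alignments. The authors deposited raw counts for 19087 genes from HTSeq 0.6.0 in strand-specific mode, a tool that skips reads with several placements. The genome annotation at hand did not pair with the gene IDs and no coordinate or sequence was used here.

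In R 4.3.3, edgeR 4.0.16 filtered genes on the 6 groups (filterByExpr), scaled libraries by TMM and fitted a robust quasi-likelihood model with 1 mean per group to all libraries. P-values were adjusted by Benjamini-Hochberg over the 12736 genes tested. Fold changes were not shrunken. CPM used TMM-scaled library sizes, and log2 CPM a prior count of 2. The biological coefficient of variation was 9.80%. No 2 libraries of a group were alike within sampling noise (lowest chi-square per degree of freedom 4.28). The scripts were tested on simulated data.

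Members, gene lists and runs were chosen with earlier results of these data known. Named genes were the 15 highest and 15 lowest called genes whose CsA libraries lay all above or all below the FORM mean, called members of the lists, all MFS, GST, CYP385C, calcineurin, CncC and germline members, the members of runs of gene numbers, the 10 highest and 10 lowest genes called only without CsA4 and the 5 called genes with the highest mean CPM. Others were picked after their values were seen. Alternatives used DESeq2 1.42.0, limma 3.58.1, other scalings, filters, thresholds and controls, a replicate block, and each library left out in turn. Same-number deviations of CsA and FORM libraries correlated at −0.054, 0.096, −0.012 and −0.13. These 4 values cannot decide whether replicate numbers pair the libraries, and the main fit treated them as unpaired.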

Additional observations from a re-analysis of the deposited data

Results flagged for a closer look

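Of 200 sets of 4 libraries (100 genes, each in CsA and in FORM), 10 held a library that stood apart from the other libraries by Dixon's criterion for 4 values, a count close to the 5% of such sets that chance marks. In FORM, the adenylate cyclase gene tetur11g05110 was low in replicate 3, at 0.887 CPM against 1.39 to 1.44 CPM in the others, and the glycoside hydrolase gene tetur06g01700 was low in replicate 1, at 101.9 CPM against 114 to 116 CPM. tetur08g06350, the gene without a description in the sialin run, was low in FORM replicate 2, at 1.04 CPM against 3.56 to 3.96 CPM. In CsA, replicate 3 was high for the glucose transporter gene tetur01g06570 (50.7 CPM against 34.9 to 37.6 CPM), the short-chain dehydrogenase gene tetur06g05090 (120.1 CPM against 69.6 to 72.8 CPM) and the Apple-like gene tetur01g15010 (7.77 CPM against 3.71 to 4.32 CPM). Replicate 3 was also high for the pancreatic hormone-like gene tetur04g09491 (0.799 CPM against 0.135 to 0.201 CPM), and replicate 1 for tetur03g01950 (5.96 CPM against 1.24 to 1.55 CPM). CsA replicate 4 was low for tetur19g02340, a gene without a description that is called higher (0.397 CPM against 0.872 to 0.938 CPM), and for the ABC transporter gene tetur14g02300 (2.78 CPM against 5.14 to 5.56 CPM).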

How the results depend on the processing

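The 133 genes called (71 higher, 62 lower) became 87 (40 higher) with DESeq2 and a normal prior, 565 (444 higher, 121 lower) with limma-voom and sample quality weights, in which CsA4 had a weight of 0.283, 461 (200 higher, 261 lower) by adjusted p alone, 17 (2 higher, 15 lower) in a test against an FC of 1.5, 315 (193 higher, 122 lower) with CON as control and 346 (240 higher, 106 lower) with CON and FORM as control. The genes called higher were 39 with limma-voom and 42 with no filter on low counts. Chosen after seeing the data, leaving out CsA4 gave 544 genes (436 higher, 108 lower) in a fit of CsA and FORM only and 566 (396 higher, 170 lower) against CON, and a fit without robust moderation gave 140. The fit of CsA and FORM only gave 120 genes, but it held 30 of the 71 called higher and 59 of the 62 called lower. Leaving out a library gave 66 to 508 genes, 19 to 414 higher and 47 to 94 lower.

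With the replicate number as a block, 185 genes were called (109 higher, 76 lower), among them 70 of the 71 and all 62. Deviations of CsA and FORM libraries of the same number correlated at −0.13 to 0.096, which cannot decide whether these libraries form pairs. What a shared number stands for is not given in the labels.

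DESeq2 without shrinkage called 155 genes and left 24 of the 71 and 6 of the 62 without an adjusted p. All 5 analyses by edgeR, DESeq2 and limma called 15 of the 71 and 43 of the 62. The glucose transporter gene tetur07g06710 was not called against FORM (log2 FC −0.003) and was called higher against CON (log2 FC 0.60). Over the genes named, the alternatives kept the call or its absence in 2073 cases, lost it in 223 and added it in 68. Low counts limit genes under about 1 CPM, and a missed call at 4 libraries a group does not show that a level was equal.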

Other observations

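Other gene groups of the study's tables held few calls. Of 10 cysteine peptidases 1 was higher (median log2 FC 0.44), and of 12 silk and secreted protein genes 1 was higher with all libraries and 3 without CsA4 (median −0.08). Of 10 cuticle protein and collagen genes none was called with CsA4, and 2 were higher without it. None of 4 intradiol ring-cleavage dioxygenases (median −0.16), 4 lipocalins (median 0.40), 10 transcription factors of the study's list (median 0.19) or 5 other P450s (median 0.13) was called with all libraries in edgeR, and 2 antigen B membrane protein genes (median 0.98) were not either. At an unadjusted p under 0.05, which 24.7% of all genes tested had, there were none of the dioxygenases, 1 lipocalin, 4 transcription factors, 1 of the other P450s and 1 antigen B gene, all higher, and 2 of the cuticle genes, both higher. Limma with sample quality weights called 1 lipocalin, 1 of the other P450s, 1 antigen B gene and 2 cuticle genes, and DESeq2 without shrinkage 1 of the other P450s and 1 cuticle gene. Among 7 neuropeptide and peptide hormone genes 1 was lower.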
